A study of Homo sapiens with 12 samples.

Results

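To ask which genes still separate Islet1-GFP positive cells from the other cells of the same cultures after exposure to a pesticide, the 3 GFP-positive libraries of cis-chlordane treated cultures were compared with the 3 GFP-negative libraries of those cultures. These are 6 of the 12 libraries of the series, chosen by their sort and treatment labels, and each GFP-positive library was paired with the GFP-negative library of the same replicate number. Of 28278 genes in the count table, 15416 passed a filter on low counts in these libraries and were tested. All libraries came from WA09-Islet1-GFP, a line of human embryonic stem cells in which GFP reports the expression of ISL1 (Islet1), listed as wild-type in genotype and differentiated into motor neuron cultures. Treated cultures received 10 µM cis-chlordane, an organochlorine insecticide that blocks GABA-A receptors, for 16 h according to the labels, and control cultures received DMSO, the solvent. Both were then dissociated with trypsin and sorted for GFP by flow cytometry, so every group passed through the same dissociation and sort. The published methods name another dose, and which dose was used cannot be told from the sources. The titles of the treated samples also start with "untreated", so the treatment was read from the treatment entry of each sample. The same reporter line was used throughout, so the replicates are not donors. By the published methods a biological replicate is a separate thaw of frozen cells, and which differentiation each thaw came from was not given for these libraries, so p-values measure the spread between thaws that may share one.

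Spinal motor neurons arise from dividing progenitors of the ventral neural tube under Sonic hedgehog, leave the cell cycle and turn on LIM homeodomain factors, of which ISL1 is among the earliest. ISL1 acts with LHX3 and MNX1 to install the cholinergic programme, that is, the enzyme and transporters that make and package acetylcholine. A GFP sort of such a culture therefore sets postmitotic ISL1-expressing neurons against a mixture of progenitors, neurons without ISL1 and non-neural cells, and the GFP-negative fraction has no single identity.

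The treated GFP-positive libraries held 29939533 to 34657783 counts and the GFP-negative libraries 23720379 to 31600119, and no pair of libraries within a group was alike within counting noise. Levels are CPM, that is, counts per 1000000 counts of the library, scaled by trimmed mean of M values (TMM) factors, and a log2 fold change above 0 means a higher level in GFP-positive cells. A differentially expressed gene (DEG) had a Benjamini-Hochberg adjusted p below 0.05 in the quasi-likelihood test of edgeR, with the replicate number as a block, and a change of at least 2-fold. In the treated cultures 1597 genes were DEGs higher in GFP-positive cells (10.4% of those tested) and 2152 were lower (14%), 3749 in all (24.3%). The split depended on scaling: with library size alone it was 2270 higher and 1817 lower, and the median of all tested genes moved from 0.049 to 0.216.

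The sort still divided the treated cultures by ISL1 and by the cholinergic genes; because the gate read an ISL1 reporter, ISL1 itself checks the sort. ISL1 (chr5:51383448-51394730, plus strand, hg38) was at 8.01, 15.3 and 12.6 CPM in the treated GFP-positive libraries and at 0.389, 0.691 and 0.566 CPM in the GFP-negative libraries of replicates 1 to 3. Its log2 fold change was 4.46 ± 0.25 (SE, n = 3 pairs, adjusted p = 1.2e-15). In DMSO cultures ISL1 was higher in both fractions, at 62.4 to 68.6 CPM against 2.41 to 2.80 CPM, with a log2 fold change of 4.57, so the levels differed from the treated cultures while the sort ratio did not pass a test of difference (interaction log2 -0.24, adjusted p = 0.63). In these bulk libraries fewer cells of a type and less RNA per cell cannot be told apart.

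CHAT (chr10:49609095-49667942, plus strand), choline acetyltransferase, was at 10.8, 11.7 and 12.6 CPM against 0.475, 1.42 and 1.03 CPM, a log2 fold change of 3.63 ± 0.25 (adjusted p = 1.8e-13). SLC18A3 (chr10:49610310-49612720), the vesicular acetylcholine transporter, was at 164, 230 and 119 CPM against 29.2, 36.2 and 40.1 CPM (log2 fold change 2.26 ± 0.17, adjusted p = 2.3e-12). SLC18A3 lies inside the CHAT locus on the same strand, so how counts were divided there is uncertain. For each of these 3 genes every GFP-positive library was above every GFP-negative library, as for 28.2% of all genes tested.

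The markers of dividing progenitors stood on the other side of the sort. SOX2 (chr3:181711925-181714436, plus strand), a transcription factor of neural stem and progenitor cells, was at 12.4, 11.7 and 15.5 CPM in GFP-positive and at 96.8, 122 and 122 CPM in GFP-negative cells (log2 fold change -3.08 ± 0.16, adjusted p = 2.6e-16). MKI67 (chr10:128096659-128126423, minus strand), which encodes the proliferation antigen Ki-67, was at 8.76, 8.71 and 7.63 CPM against 26.8, 47.9 and 21.5 CPM (log2 fold change -1.84 ± 0.18, adjusted p = 4.4e-10). For both, every GFP-positive library was below every GFP-negative library, as for 29.6% of all genes tested.

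Other homeodomain genes of motor neurons did not follow ISL1. ISL2, a paralogue of ISL1 in postmitotic motor neurons, was at 4.26, 3.72 and 6.75 CPM in treated GFP-positive and 4.40, 2.76 and 9.73 CPM in treated GFP-negative cells, with overlapping groups (log2 fold change -0.05 ± 0.21, adjusted p = 0.85). MNX1 (HB9) was at 5.16, 5.24 and 3.15 CPM against 5.14, 4.73 and 4.57 CPM (log2 fold change -0.10 ± 0.21, adjusted p = 0.71). LHX3, which marks medial motor neurons and V2a interneurons, was lower in GFP-positive cells at 2.43, 1.26 and 0.530 CPM against 4.32, 5.60 and 2.69 CPM (log2 fold change -1.69 ± 0.29, adjusted p = 1.1e-05). In the control cultures ISL2 and MNX1 were DEGs higher in GFP-positive cells, with log2 fold changes of 1.71 and 1.29, and the treated and control sort differences differed (interaction log2 -1.89 ± 0.32, adjusted p = 0.0035 for ISL2, and -1.52 ± 0.28, adjusted p = 0.0049 for MNX1).

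**Figure D1:**
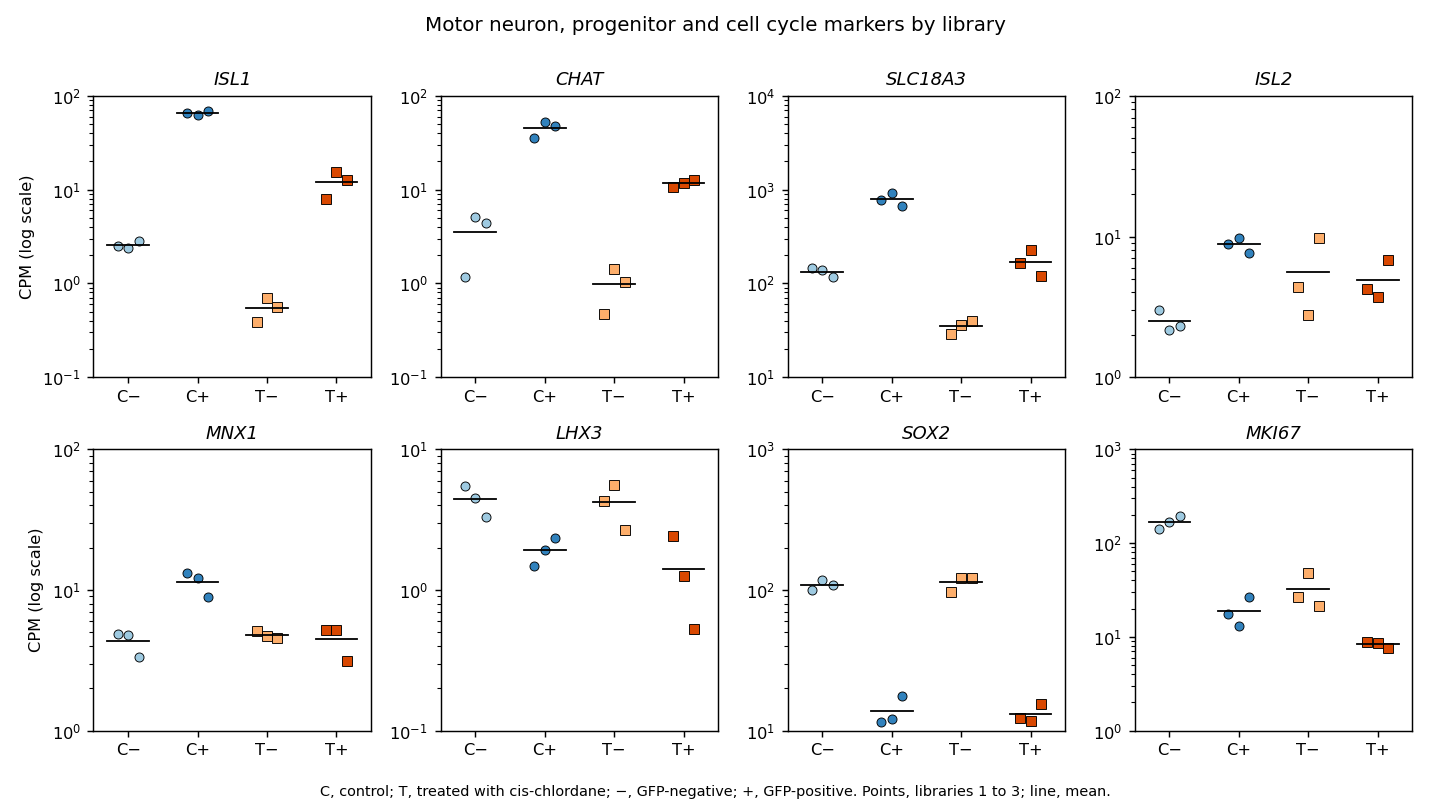
Level of 8 marker genes in each library, in CPM on a log axis, for control GFP-negative (C−), control GFP-positive (C+), treated GFP-negative (T−) and treated GFP-positive (T+) cells. Points are libraries and the line is the mean of 3. ISL1, CHAT and SLC18A3 are higher in the GFP-positive libraries of both treatments, whereas ISL2 and MNX1 overlap between T− and T+.

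The largest changes in the treated cultures were taken from DEGs that averaged at least 1 CPM and whose groups did not overlap. After ISL1 the highest log2 fold changes belonged to UTS2B, which encodes a urotensin peptide (4.26), PLXNA4, a semaphorin receptor (3.94), ARHGAP36, an activator of hedgehog signalling (3.84), HS3ST5, a heparan sulphate sulphotransferase (3.70, and 4.64 without replicate 1), and CHAT, followed by LANCL3 (3.61), SEMA3D, a secreted semaphorin (3.51), TMC3 (3.46) and SIAH3 (3.40). PLXNA4 was at 56.0, 61.7 and 44.6 CPM against 2.81, 5.56 and 2.65 CPM, with a log2 fold change of 3.58 in control cells. UTS2B was at 6.42, 10.7 and 6.99 CPM against 0.389, 0.327 and 0.531 CPM, while no control GFP-positive library exceeded 1.38 CPM. In control cells UTS2B was a DEG higher in GFP-positive cells too (2.1, adjusted p = 0.04). Its treated and control sort differences did not pass the test of difference (interaction log2 2.08 ± 0.82, adjusted p = 0.13).

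Of such genes lower in GFP-positive cells, IFITM1 (-4.72), IFITM3 (-4.38), MICA (-4.65), CD70 (-4.62), GDPD2 (-4.68), EVA1B (-4.50), TXNRD2 (-4.45), PLLP (-4.41), TMEM92 (-4.40) and CD99 (-5.38) had the lowest log2 fold changes. IFITM3, an interferon-induced membrane protein, was at 10.9, 14.8 and 9.72 CPM against 231, 231 and 280 CPM, and CD70, a ligand of the tumour necrosis factor family, was at 0.450, 0.401 and 0.344 CPM against 9.33, 10.4 and 10.4 CPM. PLLP was at or under 3 counts in every GFP-positive library, which makes it at least 22.6-fold lower there. CD99 rests partly on a single library: its GFP-negative libraries were at 2.76, 2.11 and 34.7 CPM, and its log2 fold change was -3.65 without replicate 3 and -6.53 without replicate 2. GDPD2 (-5.36 without replicate 2, -3.97 without replicate 3) and TXNRD2 (-5.49 without replicate 2) also moved by over 1.5-fold. MICA and CD99 lie in regions with near-identical copies in the genome, so their counts are uncertain.

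**Figure D2:**
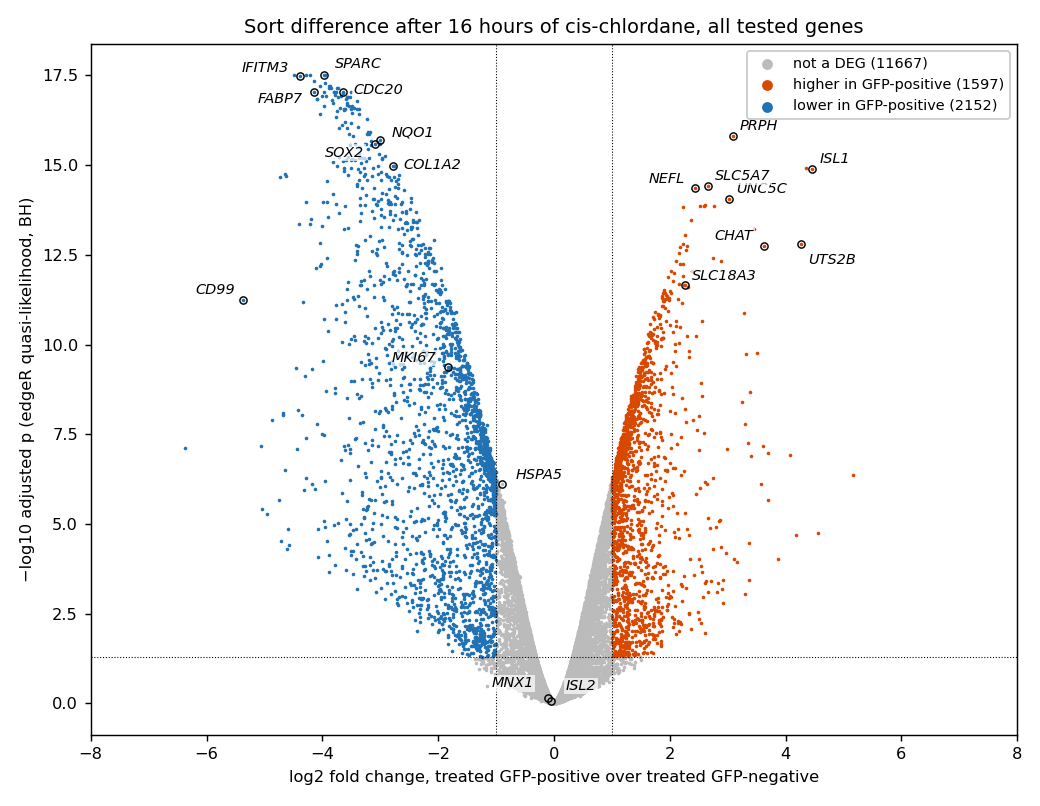
Log2 fold change of treated GFP-positive against GFP-negative cells (x axis) and −log10 of the edgeR adjusted p (y axis) for 15416 genes. Orange points are the 1597 DEGs higher and blue points the 2152 DEGs lower in GFP-positive cells, and grey points are the other 11667 genes.

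Genes of acetylcholine transmission lay mostly on the GFP-positive side. Of 12 tested genes 8 were DEGs higher and 0 lower, where 10.4% of all genes were higher and 14% lower, and the median log2 fold change was 1.81 (1.94 in control cells) beside 0.049 for all genes. SLC5A7, the high-affinity choline transporter, was at 124, 165 and 134 CPM against 19.0, 30.6 and 19.4 CPM (log2 fold change 2.66 ± 0.15, adjusted p = 3.8e-15). CHRM2, a muscarinic receptor (3.11), and the nicotinic receptor subunits CHRNA3 (1.97), CHRNA4 (1.34), CHRNA7 (2.16) and CHRNB4 (1.65) were also higher, and ACHE, acetylcholinesterase, was just under the fold threshold (0.97). CHRM2 was scarce, at 0.720, 1.23 and 0.556 CPM against 0, 0.218 and 0.0708 CPM, and was not tested in control cells. With at least 10 counts in every library 6 of 10 cholinergic genes were higher.

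In the wider motor neuron code 6 of 12 tested genes were higher and 2 lower, with a median of 0.61 (0.88 in control cells). The higher genes were ISL1, EBF1 (1.89), EBF3 (1.34) and the 3 ONECUT factors, which act in the maturation of motor neurons and interneurons, and EBF2 (-1.42) was lower besides LHX3. Among 5 tested factors of visceral and cranial motor neurons 2 were higher and 2 lower. Of these PHOX2A, a homeodomain factor of visceral motor neurons, was at 53.9, 86.1 and 47.3 CPM against 19.9, 24.6 and 23.4 CPM, every GFP-positive library above every GFP-negative one (log2 fold change 1.44 ± 0.16, adjusted p = 3.9e-09). GATA2 (-1.88) and RUNX1 (-1.21) were lower, and the median of these 5 was -0.83. The control comparison tested 9 of the list with a median of 1.72, a different set, and over 9 genes in the interaction test the median was -0.06, with 1 higher and 3 lower. TBX20 and TBX3, T-box factors of cranial motor neurons, failed the low-count filter in the treated libraries: TBX20 reached 0.477 CPM at most there, against 5.41 to 12.4 CPM in control GFP-positive cells, where it was a DEG (4.61). The count of lower genes was 1 without replicate 2 and 4 without replicate 3.

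Receptors for neurotrophic factors were divided. RET, the GDNF receptor, was at 101, 124 and 68.0 CPM against 20.8, 29.4 and 18.2 CPM (log2 fold change 2.10 ± 0.15, adjusted p = 4.6e-13), and MET, the receptor of hepatocyte growth factor, was at 42.7, 53.4 and 56.6 CPM against 15.9, 14.9 and 11.5 CPM (1.88 ± 0.17, adjusted p = 6.7e-11). NTRK2, the BDNF receptor TrkB, lay on the other side at 3.36, 2.86 and 4.58 CPM against 8.98, 13.4 and 10.2 CPM (-1.56 ± 0.21, adjusted p = 2.3e-07). Of 14 tested receptors 3 were higher and 1 lower, with GFRA2 as the third higher gene (1.04), a call that was lost without replicate 1 or without replicate 2 (0.98 in both).

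Transmitter genes other than the cholinergic ones included 4 of 8 higher and 1 lower. SLC18A2, the vesicular monoamine transporter, had a log2 fold change of 2.65, SLC17A7, a vesicular glutamate transporter, 1.68, and the catecholamine enzymes DBH and TH 1.31 and 1.26, while GAD1, which makes GABA, was lower (-2.61). The median of the 8, 0.65, was -0.03 without replicate 3, where 9 genes passed the filter, and 2 genes rather than 1 were lower without replicate 2 or 3.

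Genes shared by most neurons were higher in GFP-positive cells, although the best known of them, TUBB3, was not a DEG. Of 22 pan-neuronal genes 16 were higher and 0 lower, with a median of 1.25 (1.28 in control cells). STMN2, a microtubule regulator of growing axons, was at 1553, 1967 and 1864 CPM against 550, 525 and 595 CPM (log2 fold change 1.71 ± 0.14, adjusted p = 1.8e-11), and DCX (1.62), GAP43 (1.66), MAPT (1.78) and ELAVL2 (1.91) differed similarly. TUBB3, neuronal beta-tubulin, was at 3265, 4610 and 3239 CPM against 3045, 2780 and 3694 CPM (0.24, adjusted p = 0.17).

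Axonal cytoskeleton genes showed larger ratios. NEFL, the light neurofilament chain, was at 2932, 3932 and 2891 CPM against 607, 687 and 523 CPM (log2 fold change 2.44 ± 0.14, adjusted p = 4.3e-15), and PRPH, the peripherin of peripherally projecting neurons, was at 329, 432 and 255 CPM against 42.5, 42.8 and 34.4 CPM (3.08 ± 0.16, adjusted p = 1.5e-16). With NEFM (2.23) these made 12 of 21 neurofilament and microtubule-associated genes higher and 0 lower, at a median of 1.19. Axonal transport motors lay closer to the threshold: 6 of 34 were higher, among them the kinesin KIF5A (1.57) and the dynein chain DYNC1I1 (1.70), 1 was lower (KIF1C, -1.33), and the median was 0.52.

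Ion channels and synaptic genes were also mostly on the GFP-positive side. Of 31 voltage-gated channel genes 22 were higher and 1 lower (CACNA1G, -1.89, with 2 lower without replicate 2), with a median of 1.23; SCN3A (2.00), SCN9A (2.06), KCNA2 (2.16), KCND3 (2.22) and CACNA1E (1.87) were examples. Of 33 synaptic vesicle and exocytosis genes 14 were higher and 2 lower, with a median of 0.93; the calcium sensor SYT4 was at 796, 914 and 828 CPM against 190, 155 and 154 CPM (log2 fold change 2.37 ± 0.15, adjusted p = 3.3e-14). The lower pair was SYT2 (-1.42) and CADPS2 (-1.69), neither of which was a DEG in control cells (0.20 and 0.52). These counts depended on transcript length: with a trend on length removed, 13 channel genes and 8 synaptic genes were higher.

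Because cis-chlordane acts on GABA-A receptors, the receptor genes themselves were examined. Of 15 tested GABA and glycine receptor genes 8 were higher and 3 lower, with a median of 1.11 (0.61 in control cells, with 2 higher and 2 lower). GABRA3 was at 17.7, 21.2 and 12.7 CPM against 5.92, 7.56 and 4.14 CPM (log2 fold change 1.58 ± 0.17, adjusted p = 2.7e-09), and the glycine receptor subunit GLRA2 was at 70.5, 88.2 and 83.3 CPM against 14.4, 13.5 and 14.7 CPM (2.53 ± 0.15, adjusted p = 1.3e-14). GABRG3 was lower (-2.54), at 0.573 to 1.22 CPM against 5.16 to 6.04 CPM. GABRA2, GABRA4 and GABRG1 had no count in the 6 libraries, and GABBR1, called higher (2.54), overlapped between the groups, with 6.75 CPM in the GFP-positive library of replicate 1 and 0.265 and 0.916 CPM in the others, and did not pass the filter without replicate 1. Of 18 glutamate receptor genes 7 were higher, led by GRIK2 (2.10), GRM7 (2.05) and GRIA2 (1.92), and 2 were lower, GRIA1 (-1.77) and GRIN2B (-1.21), with a median of 0.77, and 1 was lower without replicate 2.

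Axon guidance genes were split within families, and several ligands and receptors of the same pathway lay on opposite sides. Of 30 semaphorin, plexin and neuropilin genes 8 were higher, including SEMA3C (2.28), SEMA6D (1.75) and PLXNA2 (1.56) besides PLXNA4 and SEMA3D, and 2 were lower, PLXND1 (-1.78) and SEMA5A (-1.35). The count of lower genes was 4 without replicate 1 and 1 without replicate 2 or 3. With a trend on transcript length removed 5 of the 30 were higher and 5 lower. Of 22 netrin and slit genes UNC5C (3.03), SLIT3 (2.17), DSCAM (1.66) and ROBO2 (1.57) were higher and NTN1 (-2.21) and ROBO3 (-1.16) were lower. UNC5C, a netrin receptor, was at 23.8, 28.4 and 16.9 CPM against 2.46, 4.07 and 2.12 CPM, while NTN1, the netrin ligand of the floor plate, was at 5.31, 4.95 and 5.70 CPM against 19.6, 34.7 and 22.9 CPM. Among 20 ephrins and Eph receptors 3 were higher (EPHA5 2.9, EPHA7 1.68, EPHA10 1.48) and 6 lower, with EFNA4 (-4.02), EPHB4 (-3.94) and EPHA2 (-3.21) the lowest. The family medians were 0.42, 0.03 and -0.18, close to that of all genes, and that of the netrin and slit genes was -0.10 without replicate 1. With the length trend removed the family medians were 0.04, -0.33 and -0.05, and 4 netrin and slit genes were lower.

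Progenitor genes marked the GFP-negative side. Of 25 progenitor and proneural factors 15 were lower and 1 higher, with a median of -1.82 (-1.87 in control cells). FABP7, a fatty acid binding protein of radial glia, was at 1.74, 4.21 and 2.46 CPM against 41.7, 62.0 and 43.5 CPM (log2 fold change -4.15 ± 0.18, adjusted p = 9.3e-18), and HES1, a Notch effector that keeps progenitors undifferentiated, was at 0.720, 1.12 and 0.848 CPM against 9.03, 10.7 and 9.49 CPM (-3.43 ± 0.23, adjusted p = 1.7e-13). The gene on the other side was NKX6-1 (1.29), which motor neurons keep after leaving the cell cycle.

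PAX6, a patterning factor of ventral progenitors, was not a DEG in the treated cultures, at 33.5, 26.2 and 31.6 CPM against 41.2, 38.3 and 36.0 CPM (-0.32, adjusted p = 0.061), although every GFP-positive library was below every GFP-negative one. In control cells it was at 6.12 to 9.79 CPM against 30.9 to 37.5 CPM (-2.28), so the narrower gap went with a higher level in treated GFP-positive cells (interaction log2 1.83, adjusted p = 0.00017). SOX1 (-1.40, -2.99 in control cells) and OLIG2 (-0.99, -2.70 in control cells) also had narrower gaps (interaction 1.46 and 1.58), whereas SOX21 and HES6 had wider ones (interaction -1.62 and -1.02).

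Notch and hedgehog signalling genes and interneuron factors lay on the same side as the progenitor genes. Of 18 Notch pathway genes 10 were lower and 0 higher at a median of -1.41, and the receptors NOTCH1 (-2.85), NOTCH2 (-3.02) and NOTCH3 (-3.38) were all among them; JAG1, a Notch ligand, was lower only in the treated cultures (-1.63 against 0.47 in control cells, interaction -2.23, adjusted p = 1.4e-05). Of 16 hedgehog and floor plate genes 10 were lower and 0 higher at a median of -2.03, including the floor plate factor FOXA2 (-4.22), SHH itself (-3.22) and the coreceptor BOC (-3.14), and 1 gene was higher without replicate 2. Of 9 tested spinal interneuron factors 8 were lower, among them VSX1 (-2.10) of V2a cells and TAL1 (-2.89) of V2b cells, and POU4F2 was higher (1.57). These factors are scarce: 3 of them held at least 10 counts in every library, all 3 lower, and POU4F2 was not called without replicate 1 or 2.

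HOX genes set position along the body axis. None of 20 was higher and 6 were lower, where 14% of all genes were lower, with a median of -0.24 that turned to 0.08 once a length trend was removed, and without replicate 2 only 3 were lower. The anterior genes HOXB2 (0.22), HOXB4 (-0.16) and HOXC4 (0.27) did not differ by 2-fold. HOXC5 had the lowest log2 fold change (-2.74 ± 0.51, adjusted p = 3.5e-05) and was lower in control cells too (-1.95). It was scarce, at 0.270, 0.172 and 0.0530 CPM against 1.34, 1.24 and 0.673 CPM. HOXA7 was lower as well (-1.72), with overlapping groups. HOXB9, a thoracic gene, was lower at 6.33, 3.92 and 4.87 CPM against 23.8, 17.1 and 19.1 CPM (-1.97 ± 0.17, adjusted p = 2.5e-11), and was at or under 0.864 CPM in all 6 control libraries.

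Mitosis genes were lower in GFP-positive cells with few exceptions, as were 20 of 37 DNA replication genes, and for some of them the gap was narrower than in the control cultures. Of 37 mitosis genes 35 were lower and 0 higher, at a median of -2.07 (-3.12 in control cells, with 36 lower). CDC20, an activator of the anaphase-promoting complex, was at 7.77, 9.08 and 6.83 CPM against 98.7, 112 and 89.8 CPM (log2 fold change -3.65 ± 0.16, adjusted p = 9.3e-18), and CCNB2, a mitotic cyclin, was at 6.66, 6.5 and 5.59 CPM against 43.4, 46.0 and 38 CPM (-2.74 ± 0.16, adjusted p = 4.1e-15). Of 37 DNA replication genes 20 were lower and 0 higher, at a median of -1.20 (-2.19 in control cells, with 36 lower). CDT1, which licenses replication origins, was at 12.6, 12.3 and 14.9 CPM against 99.5, 81.2 and 131 CPM (-2.92 ± 0.15, adjusted p = 5.5e-16).

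The sequence before the transcription start of these 3 genes shows the elements that cell cycle genes are known for, and is printed from RefSeq (GRCh38.p14) 5′ to 3′ and ending where the annotated gene begins. Capitals mark the CCAAT box (CCAAT, bound by NF-Y), the cell cycle homology region or CHR (TTTGAA, bound by the DREAM complex that silences mitotic genes in cells out of cycle) and a core of the E2F site (GGCGGGAA, letters taken with the CDT1 sequence in view), each on either strand.
CDC20, chr1:43358731-43358980, plus strand: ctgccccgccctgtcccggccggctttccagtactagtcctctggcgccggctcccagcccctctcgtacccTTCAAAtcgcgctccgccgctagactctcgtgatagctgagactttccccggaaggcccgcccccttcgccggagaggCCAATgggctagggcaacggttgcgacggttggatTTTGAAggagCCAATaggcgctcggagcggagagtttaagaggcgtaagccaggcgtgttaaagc
CCNB2, chr15:59104896-59105125, plus strand: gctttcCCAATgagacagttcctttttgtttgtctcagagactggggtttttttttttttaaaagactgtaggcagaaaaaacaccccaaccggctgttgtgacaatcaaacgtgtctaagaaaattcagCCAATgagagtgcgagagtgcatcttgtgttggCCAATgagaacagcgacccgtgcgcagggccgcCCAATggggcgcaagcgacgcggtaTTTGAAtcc
CDT1, chr16:88803539-88803788, plus strand: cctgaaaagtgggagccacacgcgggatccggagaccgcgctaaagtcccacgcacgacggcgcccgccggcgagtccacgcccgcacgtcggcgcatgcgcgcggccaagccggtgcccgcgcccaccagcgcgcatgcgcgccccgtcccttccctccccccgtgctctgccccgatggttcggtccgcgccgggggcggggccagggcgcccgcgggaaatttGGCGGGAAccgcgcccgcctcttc
CDC20 held 2 CCAAT boxes and 2 CHR, CCNB2 held 4 CCAAT boxes and 1 CHR, and CDT1 held neither but had 1 E2F core. In windows of 300 bases around the start, a CCAAT box was present in 77.4% of 31 matched mitosis genes and 56.2% of 32 replication genes, against 34.6% of 35116 RefSeq promoters. A CHR was present in 71% of the mitosis and 3.12% of the replication windows, against 15.2% of all, and the E2F core in 3.23% and 28.1%, against 3.16% of all. A match of letters does not show that a factor binds there.

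Some replication genes lay within 2-fold of each other in the treated fractions. MCM4, a subunit of the replicative helicase, was at 41.3, 36.9 and 52.7 CPM in GFP-positive and 42.7, 53.1 and 46.4 CPM in GFP-negative cells (-0.11, adjusted p = 0.57), with overlapping groups, against -1.95 in control cells. CCNE1, the G1/S cyclin (-0.01 against -1.55), LIG1 (-0.30 against -1.64) and FEN1 (-0.37 against -2.03) also differed by less than 2-fold in treated cells. For 14 of 37 replication genes and 8 of 37 mitosis genes, MKI67 included (interaction 1.34 ± 0.27, adjusted p = 0.0095), the treated log2 fold change was higher than the control one by the interaction test, and for 0 it was lower. Over all genes 2.03% were called higher and 1.77% lower in this test. The replication count was 9 without treated replicate 3 and 20 without treated replicate 2, and the mitosis count was 2 and 19 in those settings, 4 without treated replicate 1 and 2 without control replicate 2. Over all alternative settings the replication count ran from 0 to 20 and the mitosis count from 0 to 19. MKI67 itself lost its interaction call without treated replicate 1, treated replicate 3 or control replicate 2. The GFP-negative level moved with the gap: MKI67 was at 142 to 195 CPM in control and 21.5 to 47.9 CPM in treated GFP-negative cells.

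Markers of other cell types were mostly lower in GFP-positive cells, and their part in the other differences was not tested. Of 11 tested astrocyte and radial glia markers 10 were lower, with a summed level of 109 to 135 CPM against 454 to 579 CPM. GJA1, the gap junction protein connexin 43, was at 6.27, 6.33 and 6.2 CPM against 64.2, 99.7 and 74.9 CPM (-3.62 ± 0.17, adjusted p = 2.7e-17), and CD44 was lower too (-3.76). The mature astrocyte markers AQP4 and S100B did not pass the filter, and SPARCL1 was at least 9.5-fold lower. SLC1A2, a glutamate transporter also found in neurons, was higher (1.09). TNC, an extracellular protein of radial glia, was at 84.7, 80.0 and 64.1 CPM against 313, 378 and 336 CPM, while both control fractions were at 17.9 to 21.1 CPM (treated -2.15, control -0.05, interaction -2.23).

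Mesenchymal, matrix and vascular markers showed the same side of the sort. Of 13 mesenchymal markers 12 were lower, with a sum of 195 to 240 CPM against 941 to 1446 CPM, and DCN, LUM, PRRX1 and POSTN did not pass the filter. The smooth muscle genes ACTA2 (-4.29) and MYL9 (-4.28) and the collagen COL1A1 (-3.57) led them. Of 31 collagen, laminin and basement membrane genes 23 were lower and 0 higher, at a median of -1.98; SPARC, a collagen-binding matrix protein, was at 67.1, 72.3 and 68.7 CPM against 1030, 1250 and 1058 CPM (-3.98 ± 0.16, adjusted p = 3.2e-18). Of 6 endothelial markers 5 were lower (sum 13.6 to 17.5 against 128 to 164 CPM), while PECAM1 and VWF did not pass the filter. KDR, a VEGF receptor, made up most of the sum at 7.30 to 9.70 against 85.8 to 126 CPM (-3.57). In control cells KDR was at 1.16 to 1.38 against 8.95 to 10.2 CPM, so its level was higher in both treated fractions.

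Epithelial keratins were abundant in GFP-negative cells. KRT8 was at 122, 154 and 139 CPM against 734, 720 and 883 CPM (-2.47 ± 0.15, adjusted p = 1.1e-14), and 6 of 8 epithelial markers were lower (sum 168 to 204 against 986 to 1235 CPM), but EPCAM was not (0.26) and KRT5 had no count. Of 5 oligodendrocyte markers 3 were lower (among them CSPG4 -3.29 and MYRF -1.02; sum 72.3 to 87.0 against 81.7 to 123 CPM), with MOG, MAG and SOX10 under the filter, and MYRF was under the threshold without replicate 2 (-0.86). Of 5 pluripotency markers DPPA4 (-3.03) and L1TD1 (-2.57) were lower (sum 73.2 to 93.8 against 133 to 199.5 CPM), the groups of L1TD1 overlapped and it was not tested without replicate 1, and POU5F1 and TDGF1 had no count. Of 4 skeletal muscle markers DES was lower (-3.49; sum 7.05 to 9.16 against 54.6 to 62.5 CPM), and MYF5 and MYH8 had no count. Of 5 neural crest and sensory markers RUNX3 (-3.58) and POU4F1 (-1.47) were lower, PRPH was higher (sum 258 to 436 against 41.8 to 49.7 CPM, mostly PRPH), and FOXD3, SOX10 and TFAP2A did not pass the filter.

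Globin transcripts were uneven between libraries. HBB was at 140, 0.182 and 108 CPM in the treated GFP-negative libraries and 15.2, 0.315 and 0.0265 CPM in the GFP-positive ones, so the groups overlapped, and 1 control GFP-negative library was at 3520 CPM. HBB, HBA1 and HBA2 were the 3 lower DEGs among 4 tested blood markers (1 lower without replicate 1, 6 of 7 tested without replicate 2), but in DESeq2 the adjusted p was 0.14 for HBB and 0.087 for HBA2, while AIF1 and HBG1 had no count and CD68 was under the threshold (0.93). The blood marker sum was 13.5 to 38.4 against 6.76 to 239 CPM, and the 2 alpha globin genes share near-identical sequence.

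Stress genes of the endoplasmic reticulum were at high levels in both treated fractions and were not higher in GFP-positive cells as a group. HSPA5, the chaperone BiP, was at 3649, 2840 and 3052 CPM in GFP-positive and 6752, 5734 and 5635 CPM in GFP-negative cells, and at 293 to 613 CPM in the control libraries. Its sort difference was below 2-fold (log2 fold change -0.91 ± 0.13, adjusted p = 7.9e-07; -0.78 in control cells), every GFP-positive library was below every GFP-negative one, and with a trend on GC content or on transcript length removed it was -1.11. The HSPA5 sequence before its start (RefSeq, GRCh38.p14, 5′ to 3′) holds the endoplasmic reticulum stress element (CCAAT and CCACG with 9 bases between them), shown in capitals. This element includes 1 of the 4 CCAAT boxes of the stretch on either strand, and the others are left in lower case.
HSPA5, chr9:125241383-125241593, minus strand: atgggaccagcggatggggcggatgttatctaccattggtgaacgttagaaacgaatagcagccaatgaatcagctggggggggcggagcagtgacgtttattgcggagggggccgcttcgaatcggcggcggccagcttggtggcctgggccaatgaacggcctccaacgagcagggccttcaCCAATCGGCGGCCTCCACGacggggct
This element was present in 5 of 14 matched ATF6 targets (35.7%) and in 0.0769% of all RefSeq promoters, on either strand.

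Across the 3 arms of the unfolded protein response few genes passed both thresholds. None of 21 IRE1 and XBP1 targets was a DEG in edgeR or in DESeq2 (median -0.17), although 13 had an unadjusted and 12 an adjusted p below 0.05 with changes under 2-fold, and 1 was lower without replicate 2 or 3. Further, 1 of 15 ATF6 targets was lower (SDF2L1, -1.05), with 2 lower without replicate 3 and a median of -0.41. Of 32 PERK and ATF4 targets 4 were lower and 0 higher (median -0.28), where 14% of all genes were lower and 10.4% higher. XBP1 was at 456, 541 and 396 CPM against 489, 442 and 579 CPM (-0.10, adjusted p = 0.60), a sign that turned with library size alone, without replicate 3 and with the length trend removed, and ATF4 had a log2 fold change of -0.29 (adjusted p = 0.068). DDIT3, the transcription factor CHOP, was at 201, 142 and 258 CPM against 121, 78.1 and 202 CPM; the groups overlapped, every pair had the higher level in GFP-positive cells, and the change was under 2-fold (0.67 ± 0.14, adjusted p = 0.00022) unless a trend on length was removed (1.14). TRIB3, a pseudokinase induced by CHOP, was at 345, 378 and 304 CPM against 698, 717 and 836 CPM (-1.11 ± 0.14, adjusted p = 1.3e-07; -0.97 without replicate 3), where control cells showed -0.10 (interaction -1.14, adjusted p = 0.0064). PCK2 (-1.44), SHMT2 (-1.22) and the cystine transporter SLC7A11 (-1.06) were the other lower ATF4 targets.

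Oxidative stress, p53 and heat shock genes included lower DEGs and no higher one. Of 19 NRF2 targets 6 were lower (median -0.63); NQO1, a quinone reductase, was at 14.9, 15.6 and 18.0 CPM against 119, 119 and 159 CPM (-3 ± 0.15, adjusted p = 2e-16), against -2.01 in control cells, and HMOX1 (-1.23) and FTL (-1.29) were lower as well. Of 20 p53 targets 8 were lower (median -0.43), led by DDB2 (-2.62) and FDXR (-1.99) and including CDKN1A (-1.07). Of 17 heat shock genes 4 were lower (median -0.43), the small heat shock genes CRYAB (-2.80), HSPB1 (-1.93) and HSPB8 (-1.21) and the cochaperone BAG3 (-1.06).

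Cell death genes went both ways. Of 30 apoptosis genes 2 were higher, among them HRK, a neuronal BH3-only gene, and 10 were lower, at a median of -0.14. HRK was at 126, 109 and 136 CPM against 44.9, 47.8 and 42.4 CPM (1.48 ± 0.15, adjusted p = 1.1e-09). CASP8 (-3.17), the death receptor TNFRSF10A (-3.94) and BAX (-1.83) were lower. Of 29 autophagy genes ULK2 (1.06) and OPTN (1.18) were higher, 1 of them without replicate 1, and TFEB was lower (-1.57), where 10.4% of all genes were higher and 14% lower. SQSTM1, the receptor p62, was under the threshold (-0.89) at 628, 540 and 859 CPM against 1229, 986 and 1617 CPM.

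Ribosomal protein genes were lower in GFP-positive cells in 25 of 53 cases, and the metabolic lists held fewer DEGs. Of these cytosolic ribosomal protein genes 0 were higher, and the median was -0.98 (-0.93 in control cells), and the medians of pairs 1 to 3 were -1.15, -0.56 and -1.23. RPLP0 was at 829, 1023 and 1096 CPM against 3008, 2547 and 4215 CPM (-1.68 ± 0.15, adjusted p = 3.5e-11); ribosomal genes have many near-identical pseudogenes, so their counts are uncertain. Of 72 nuclear oxidative phosphorylation genes 7 were lower, where 14% of all genes were, at a median of -0.45, and 16 were lower without replicate 2 and 1 without replicate 3. Of 20 glycolysis genes 5 were lower, including ENO1 (-1.69), PKM (-1.42) and the glucose transporter SLC2A1 (-1.5), and the neuronal enolase ENO2 was higher (1.00), a call lost without replicate 1 or 2. The ENO2 call was also lost in DESeq2 and with at least 10 counts in every library, among other settings. None of 22 sterol synthesis genes was a DEG in edgeR or in DESeq2 (median 0.18), although 9 had a p below 0.05 before and after adjustment, with changes under 2-fold.

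Of 30 genes mutated in amyotrophic lateral sclerosis, a disease of motor neurons, 2 were higher and 5 lower, where 10.4% of all genes were higher and 14% lower. The median was 0.05 next to 0.049 for all genes. OPTN was at 180, 187 and 188 CPM against 88.3, 79.9 and 81.2 CPM (1.18 ± 0.14, adjusted p = 3.7e-08), and KIF5A was the other higher gene. PFN1, an actin regulator, was lower at 400, 464 and 470 CPM against 1353, 1234 and 1658 CPM (-1.64 ± 0.14, adjusted p = 4.6e-11), as were ANXA11 (-2.72), ERBB4 (-2.73), ANG (-2.14) and CHCHD10 (-3.95). CHCHD10 was at 0.180, 5.30 and 0.0265 CPM against 21.0, 6.62 and 23.2 CPM, and in control cells ranged from 0.147 to 16.5 CPM without separating the fractions. SOD1 (-0.16) and TARDBP (0.08) differed by less than 2-fold.

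**Figure D3:**
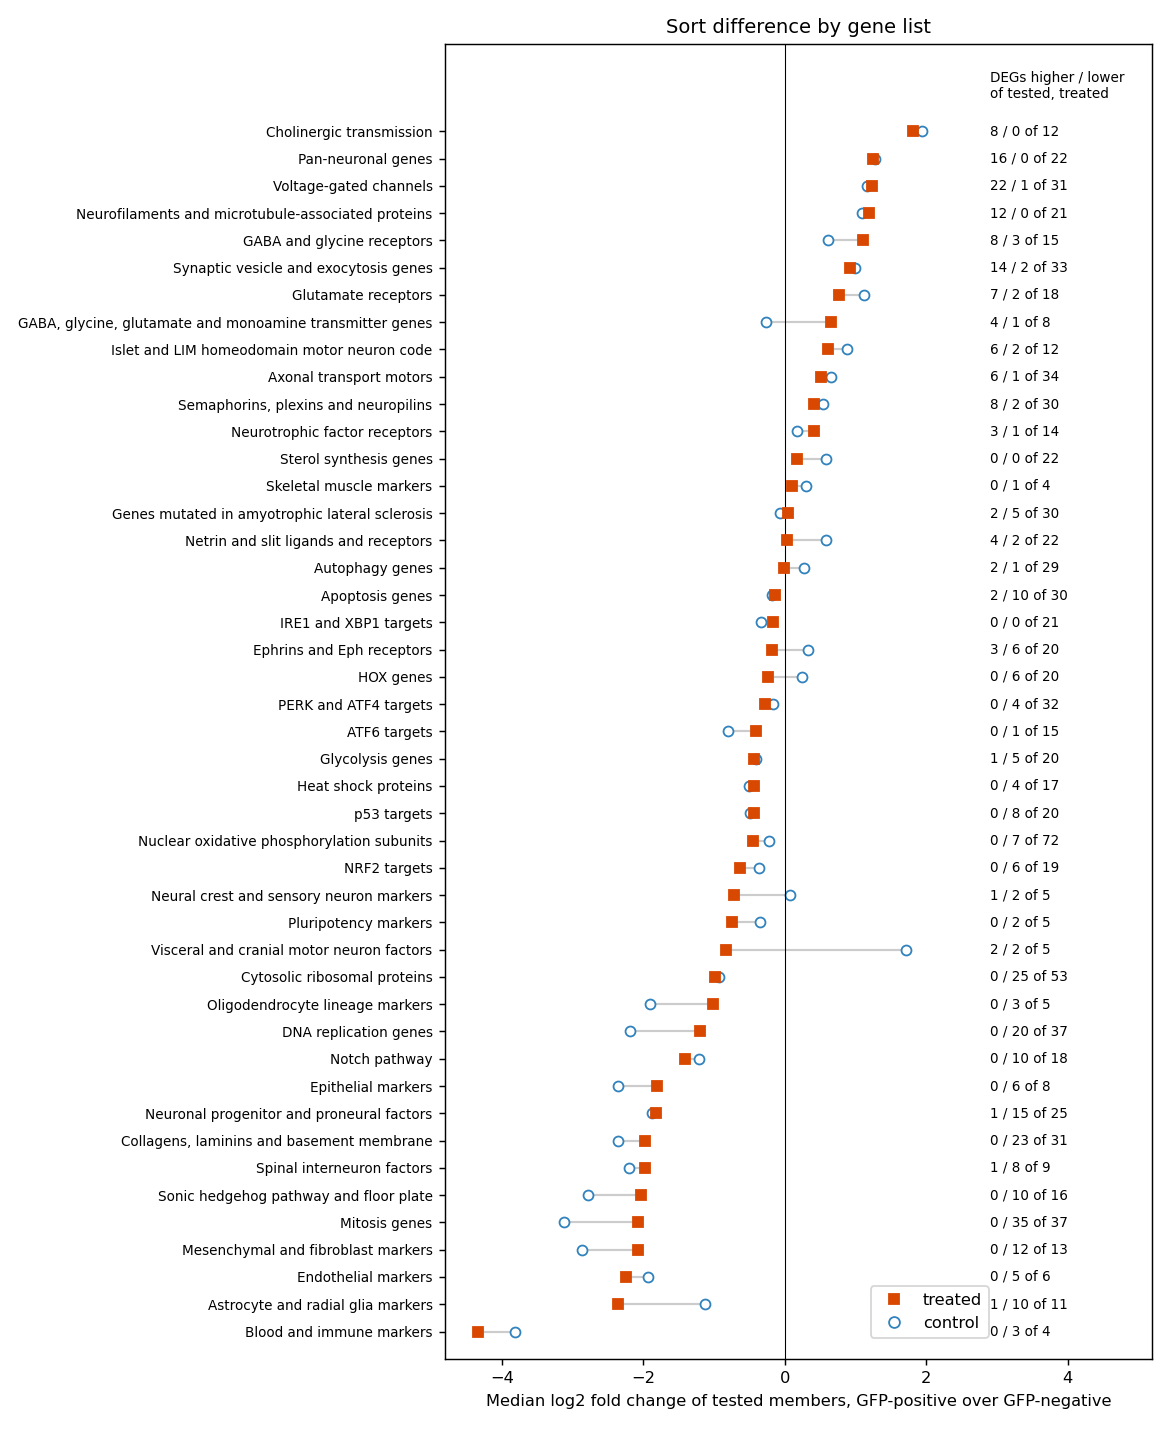
Median log2 fold change of GFP-positive against GFP-negative cells for 45 gene lists, in treated (squares) and control (circles) cultures, with the counts of DEGs in the treated comparison beside each list. Cholinergic, pan-neuronal and channel lists have medians above 0, and mitotic, glial, mesenchymal and matrix lists have medians below -1.

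The treated sort difference was then set beside that of the DMSO cultures, which share no library with it. In control cells 1262 genes were higher (8.19%) and 2371 lower (15.4%) among 15404 tested. Of 14872 genes tested in both, 784 were higher in both, which is 52.1% of those higher in treated and 65.1% of those higher in control cells, and 1521 were lower in both, 75.8% and 68.7%. Across these genes the 2 log2 fold changes had a Pearson correlation of 0.83 and a slope of 0.78 (treated on control), a description across genes that are not independent. A gene called in one treatment alone was seldom shown to differ: of 721 genes higher in treated cells alone 36 had an interaction call, and of 486 lower in treated cells alone 94 did.

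**Figure D4:**
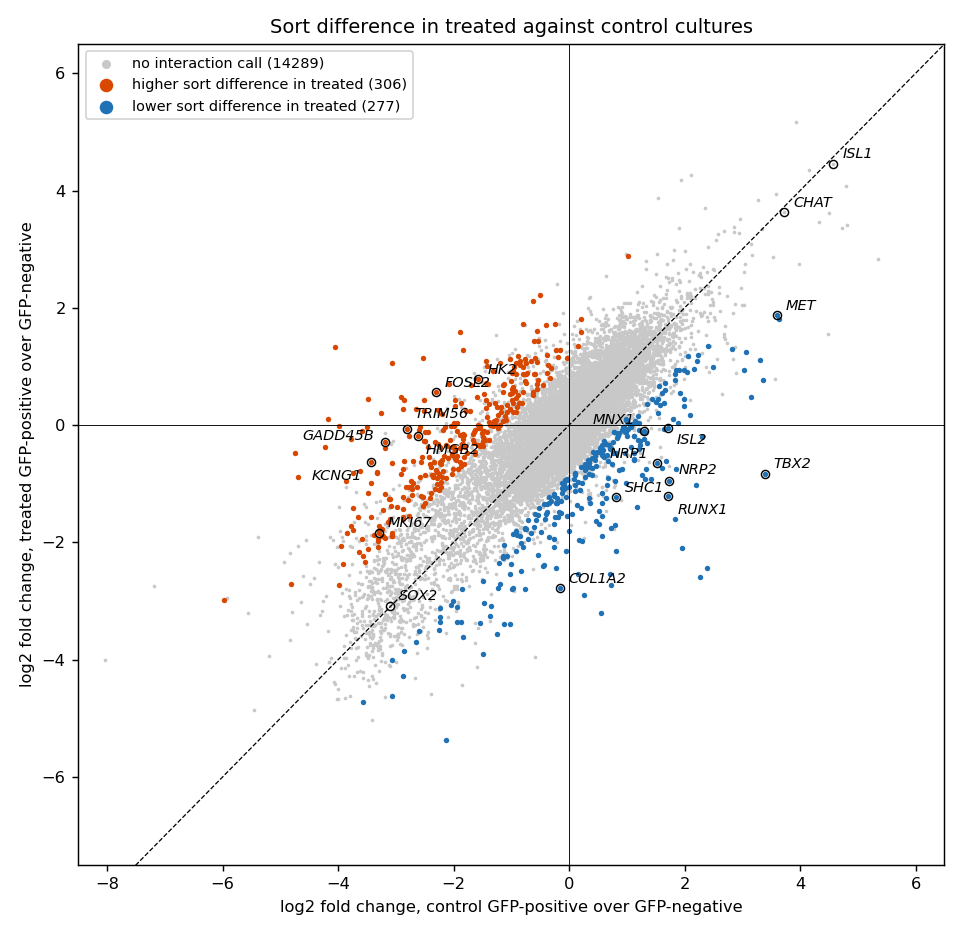
Log2 fold change of GFP-positive against GFP-negative cells in control (x axis) and treated cultures (y axis) for 14872 genes tested in both. Coloured points are the 306 genes whose treated difference was higher and the 277 whose treated difference was lower by the interaction test, and grey points are the other 14289.

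The difference between the 2 sort contrasts was tested across all 12 libraries with each culture as a block. The sort difference was higher in treated cells for 330 of 16226 genes and lower for 288. Most of the 330, namely 172, were lower in control GFP-positive cells and were not DEGs in treated cells, so for these a sort difference was smaller. Of the 288, 88 were lower in treated cells alone and 67 were higher in control cells alone.

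TBX2, a T-box factor of cranial and visceral motor neurons, had the lowest interaction value among the 12 genes chosen by smallest p. It was at 51.4, 57.5 and 51.6 CPM in control GFP-positive and 5.26, 4.17 and 4.92 CPM in control GFP-negative cells, but at 0.930, 1.29 and 1.59 CPM and 2.29, 2.80 and 1.80 CPM in the treated fractions (interaction log2 -4.33 ± 0.30, adjusted p = 3.9e-06). The neuropilins NRP1 and NRP2, coreceptors of class 3 semaphorins, were also among the 12. NRP2 was at 112, 131 and 93.9 CPM in treated GFP-positive and 194, 286 and 190 CPM in treated GFP-negative cells, and at 395 to 405 and 98.6 to 127 CPM in the control fractions (treated -0.96, control 1.73, interaction -2.82 ± 0.18, adjusted p = 3.9e-06). NRP1 was at 50.5, 62.8 and 44.3 CPM against 83.4, 89.3 and 76.8 CPM in treated and 90.3 to 104 against 28.2 to 33.9 CPM in control cells (treated -0.65, control 1.53, interaction -2.31 ± 0.18). For both neuropilins the order of the fractions was inverted in every pair.

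RUNX1, a transcription factor of subsets of motor and sensory neurons, was a DEG in opposite directions: 7.74, 6.64 and 11.6 CPM against 19.6, 21.8 and 18.6 CPM in treated cells (-1.21 ± 0.18, adjusted p = 1.2e-06; -0.99 without replicate 2) and 33.2 to 44.9 against 9.53 to 12.7 CPM in control cells (1.72). SHC1, a receptor tyrosine kinase adaptor, went from 0.81 in control to -1.23 in treated cells. COL1A2, a type I collagen chain, had a log2 fold change of -0.16 in control cells and was lower in treated GFP-positive cells at 47.1, 50.9 and 32.5 CPM against 299, 330 and 271 CPM (-2.79 ± 0.15, adjusted p = 1e-15), while its partner chain COL1A1 was lower in both (-3.57 and -2.86).

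In the other direction, genes that were lower in control GFP-positive cells lay within 2-fold between the treated fractions. HMGB2, a chromatin protein of proliferating cells, was at 181, 227 and 178 CPM against 216, 247 and 210 CPM in treated cells (-0.18, adjusted p = 0.27) and at 28.6 to 47.1 against 167 to 293 CPM in control cells (-2.62), an interaction of 2.31 ± 0.17 (adjusted p = 5.9e-06). GADD45B, a stress-induced growth arrest gene (-0.28 against -3.19), the potassium channel subunit KCNG1 (-0.63 against -3.43) and the ubiquitin ligase TRIM56 (-0.06 against -2.81) followed the same pattern, and in all 4 the treated groups overlapped. FOSL2, an AP-1 factor, was at 84.4, 63.3 and 102 CPM against 49.9, 60.2 and 59.5 CPM in treated and 4.23 to 5.28 against 18.0 to 25.2 CPM in control cells (0.56 against -2.31), and hexokinase HK2 was at 121, 85.2 and 122 CPM against 61.7, 60.1 and 69.6 CPM in treated and 6.86 to 8 against 18.5 to 22.8 CPM in control cells (0.78 against -1.57). In these 2 genes every treated GFP-positive library was above every treated GFP-negative library.

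**Figure D5:**
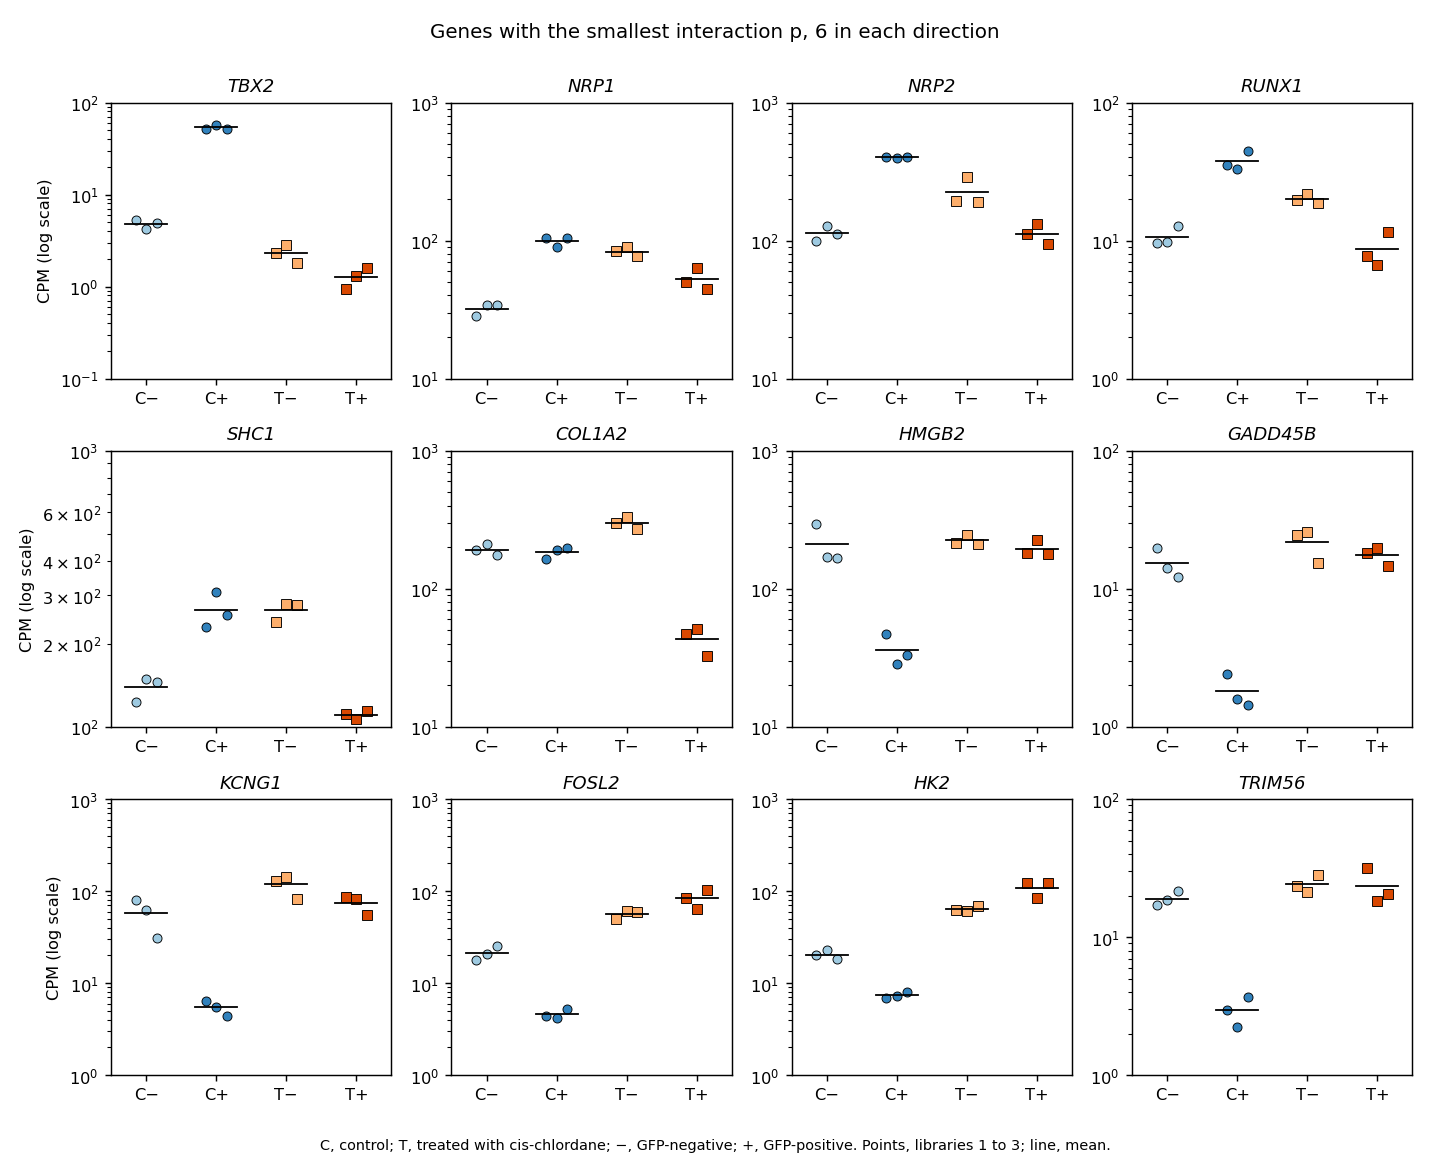
Level in each library, in CPM on a log axis, of the 12 genes with the smallest interaction p, 6 in each direction, in control GFP-negative (C−), control GFP-positive (C+), treated GFP-negative (T−) and treated GFP-positive (T+) cells. Points are libraries and lines are means of 3. TBX2, NRP1 and NRP2 are higher in C+ than in C− and lower in T+ than in T−, and HMGB2 is lower in C+ than in C− and overlaps between T− and T+.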

How the data were processed

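RNA from GFP-sorted cells of the WA09-Islet1-GFP line was sequenced as stranded mRNA libraries, and the authors aligned single-end reads to hg38 with HISAT2, set to reverse strand, and counted them with featureCounts on Ensembl GRCh38 genes, with replicate lanes joined. The deposited values are raw counts per gene, and tool versions and the counter's own strand and multiple mapping options were not given in the sources used here, so antisense, overlapping and multicopy genes are uncertain. Groups followed the treatment and sort labels, 3 libraries each.

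Counts were filtered with filterByExpr (minimum count 10, total 15), scaled by TMM and tested with the edgeR 4.0.16 quasi-likelihood test (R 4.3.3) with a replicate block, two-sided. DEGs had a Benjamini-Hochberg adjusted p below 0.05 and a fold change of at least 2. SE is the log2 fold change divided by the square root of F. Same-numbered fractions of a culture deviated together (correlations 0.20, 0.28 and 0.55 in treated, 0.45, 0.16 and 0.48 in control cells over 13368 genes), so the numbers were taken to pair them, although treated GFP-positive 1 correlated with GFP-negative 2 at 0.28, above its own partner. The interaction used 12 libraries with each culture as a block. The genes named by rule were the markers, the 10 DEGs of largest change in each direction whose groups did not overlap (mean level 1 CPM or more), the leading DEGs of each list in the direction of its median (3 at most), the 6 genes of smallest interaction p in each direction, and selected stress and receptor genes; other list members were named after their values were seen, and some are not reported here. The members and the 45 lists, some of which share genes, were chosen with earlier results of these data known. Lists received no test of their own. DESeq2 1.42.0, glmTreat, other scalings, filters, left-out replicates and GC or length trends were alternatives, the last 2 chosen after seeing the data. On simulated counts in which 200 genes were changed, the sort test recovered 197 of them with 6 false calls among 15218 genes. The interaction test recovered 170 of 200 with 11 false calls among 15980. In both simulations the changed genes were drawn from those with ample counts and all changed by more than 2-fold. Recovery of scarce genes, or of changes near 2-fold, was therefore not tested. In the treated cultures 24.3% of the genes tested were DEGs, and recovery with so large a share of changed genes was not tested. Gene positions are from GENCODE on hg38 (25763 of 28278 symbols matched) and promoters from RefSeq GRCh38.p14. Plots used Python 3.11.15 and matplotlib 3.10.9. Depth was 23414935 to 38347050 counts per library, and genes at or under 3 counts per library were given a bound.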

Additional observations from a re-analysis of the deposited data

Results flagged for a closer look

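The difference between the treated and the control sort contrast was past both thresholds for 27 named genes (edgeR quasi-likelihood interaction test, adjusted p below 0.05, at least 2-fold). Values are interaction log2 fold changes, treated minus control. They describe the ratio of the fractions, not the level in either. The sort difference was lower in treated cells for the motor neuron factors ISL2 (-1.89) and MNX1 (-1.52), the T-box factor TBX2 (-4.33), RUNX1 (-3.06) and the neuropilins NRP2 (-2.82) and NRP1 (-2.31). It was also lower for the adaptor SHC1 (-2.17), the receptor MET (-1.85) and the collagen COL1A2 (-2.75). HOXB9 (-2.34), the progenitor factor SOX21 (-1.62), ACTA2 (-1.54), the endothelial receptor TIE1 (-1.65), CD70 (-1.68), CD99 (-3.22), IFITM1 (-1.28), TRIB3 (-1.14), PHLDA3 (-1.36) and NQO1 (-1.12) had lower sort differences as well. The sort difference was higher in treated cells for HMGB2 (2.31), GADD45B (2.78), KCNG1 (2.67), FOSL2 (2.74), HK2 (2.23), TRIM56 (2.62), GATA2 (1.37) and MKI67 (1.34).

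Calls differed in how often they were lost over 15 alternatives (14 for HOXB9 and CD99). TBX2, NRP1, NRP2, RUNX1, SHC1, COL1A2, HMGB2, GADD45B, KCNG1, FOSL2, HK2 and TRIM56, which have the smallest p by choice, lost their call in 0 of 15, with TBX2 between -4.69 and -3.99. MET, MNX1, PHLDA3, TIE1 and HOXB9 lost it in 1, ISL2 and SOX21 in 2, and CD70 in 4. MKI67 and GATA2 lost it in 5, including without treated replicate 1, without treated replicate 3 and without control replicate 2, and MKI67 ranged from 1.12 to 1.81. ACTA2 lost it in 6, TRIB3 in 8, CD99 in 9 of 14, NQO1 in 10 and IFITM1 in 12. Groups of 3 libraries were not screened for single outlying values, and the cause of these differences was not tested.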

How the results depend on the processing

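Of the 3749 DEGs of the treated sort comparison, 3612 were also called without the replicate block, 3492 in DESeq2 and 1899 by glmTreat, which tests against a 2-fold change and called 552 higher and 1347 lower. Without 1 replicate there were 1370 to 1728 higher and 2136 to 2343 lower in treated cells, and 1046 to 1663 and 2193 to 2371 in control cells. Without the replicate block, that is, without pairing, counts were 1541 higher and 2117 lower in treated and 1151 and 2355 in control cells. The share of calls that were higher was 42.6%, but 55.5% with library size alone and 29.1% in glmTreat. The interaction counts were less stable: 330 higher and 288 lower became 549 and 119 with library size alone (median of all genes 0.189 in place of -0.069), 151 and 153 without the replicate block, 26 and 33 in glmTreat, and 169 lower with at least 10 counts in every library. Without 1 library pair they were 170 to 572 higher and 124 to 335 lower. Their higher share was 53.4%, and 82.2% with library size alone, 73.5% with the strict filter, 60.2% with RLE scaling, 65.4% with a GC trend and 63.9% with a length trend removed.

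Of 139 named calls 21 were lost under at least 1 alternative, 17 of them under glmTreat. Signs turned for 5 genes near 0. ISL2 was 0.12 with library size, -0.30 to 0.19 without 1 replicate, 0.17 with the GC and 0.25 with the length trend removed, and MNX1 0.07, -0.25 to 0.08, 0.12 and 0.12. TRIM56 was 0.11 with library size, -0.34 to 0.11 without 1 replicate and 0.05 with GC, XBP1 0.07 with library size, -0.32 to 0.10 without 1 replicate and 0.13 with length, and HMGB2 0.11 with length. The cause was not tested. Depth did not allow a fold for the 39 DEGs with a group at or under 3 counts per library beyond a bound.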

Other observations

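In all, 13 genes were DEGs in opposite directions in the treated and control cultures, RUNX1 described above among them. They were named after their values were seen. All 13 also passed the interaction test, but choosing them by opposite calls in the same libraries makes this likely, so it adds no separate support. Higher in treated and lower in control GFP-positive cells were AGT (log2 fold change 1.15 against -2.54), which encodes angiotensinogen, KCP (1.58 against -1.90), PLCG2, a phospholipase C (1.06 against -3.07), TMEM144 (1.34 against -4.06), RASD2 (1.07 against -1.20), SYCE2 (1.00 against -1.43) and FOXD2-AS1 (1.29 against -1.85). Lower in treated and higher in control cells were RUNX1, RGS4, a regulator of G protein signalling (-1.39 against 1.17), PCDH12 (-2.10 against 1.96), ABR (-2.59 against 2.26), FLOT1 (-2.44 against 2.39) and APCDD1L (-1.61 against 1.84). Of these RUNX1 and RGS4 had the highest levels: RGS4 averaged 4.48 CPM in treated GFP-positive and 11.3 CPM in treated GFP-negative cells, against 17.6 and 7.24 CPM in control cells. Most of the others averaged below 5 CPM in every group, FLOT1 lies in a region with near-identical alternate copies, and FOXD2-AS1 is an antisense gene.

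For some stress and survival genes the sort difference differed between the treatments by the interaction test. GDF15, a secreted stress cytokine, had a log2 fold change of -0.82 in treated and -3.33 in control cells (interaction 2.40). BCL2L11, the death activator BIM, had 0.87 against -0.79 (interaction 1.54), and BCL2L1, the survival gene BCL-XL, had -0.70 against 0.34 (interaction -1.17).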
